A study of Rattus norvegicus with 4 samples.

Results

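miR-451 and miR-144 are a pair of erythroid microRNAs made from 1 locus, and their probes in rat heart were read after myocardial infarction (MI) and after a sham operation as a measure of the blood held in the tissue. The members were the rat probes named rno-miR-451 or rno-miR-144, which gave 2 of the 348 rat probes on the day 2 arrays and 2 of the 677 rat probes on the day 14 arrays. Each group was 1 array of heart RNA pooled from 3 male Wistar rats. The MI group had the chest and pericardium opened and the left anterior descending (LAD) coronary artery tied, and its hearts were taken at day 2 or at day 14. The sham group had the chest and pericardium opened without the tie, at the same 2 days. No age, infarct size or region of the heart is given in the labels, nor whether blood was flushed from the hearts. Total RNA carried the dye Hy3 and was hybridized to miRCURY arrays, whose probes contain locked nucleic acids, with 1 µg at day 2 and 0.5 µg at day 14.

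With 1 array in each group no test of MI against sham was possible. A difference is given on the log2 scale, MI minus sham, with a standard error (SE) over the 4 spots of a probe, which leaves out the spread between rats and between arrays. Array and group cannot be told apart. Levels were not set against each other across days, because the array generation and the RNA amount differ. In whole heart tissue, fewer red cells and less of a miRNA in each cell cannot be told apart.

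The miR-144/451 locus is transcribed as 1 unit under the factor GATA1 while red cell precursors mature, and both miRNAs stay in circulating red cells, where miR-451 is among the most abundant. In mouse and zebrafish miR-451 skips the enzyme Dicer, and its short hairpin is cut by the Argonaute protein Ago2 instead, whereas miR-144 is made the common way. In mouse erythroid cells miR-451 represses Ywhaz, which codes for a 14-3-3 protein. Expression of both in heart muscle cells has also been described in mouse, so a signal in whole heart need not come from blood alone.

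The mature arms and hairpins below, from the RefSeq table of build GRCr8, are shown because both probes read products of the same stretch of rat chromosome 10. In the mature sequences capitals mark the seed (bases 2 to 8), and in the hairpins they mark the mature arm that was measured.
rno-miR-451-5p: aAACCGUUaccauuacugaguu
rno-miR-144-3p: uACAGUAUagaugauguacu
rno-miR-144-5p: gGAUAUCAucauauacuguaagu
Mir451a: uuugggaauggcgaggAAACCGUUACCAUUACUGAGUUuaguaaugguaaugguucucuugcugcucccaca
Mir144: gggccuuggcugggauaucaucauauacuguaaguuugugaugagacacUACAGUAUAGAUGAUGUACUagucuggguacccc

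The array's rno-miR-451 is rno-miR-451-5p in RefSeq, with 22 bases at chr10:63459585-63459606 on the plus strand. The array's rno-miR-144 is rno-miR-144-3p, with 20 bases at chr10:63459446-63459465 on the same strand. The Mir144 hairpin, at chr10:63459397-63459479, lies 89 bases before the Mir451a hairpin, at chr10:63459569-63459640. In Mir451a the mature arm covers bases 17 to 38 of 72. In Mir144 the arm covers bases 50 to 69 of 83. The members share no seed. Among 693 mature rat miRNAs in the table, 0 others carried the seed of miR-451 and 0 others the seed of miR-144. Set base against base from the 5′ end, no other mature rat miRNA had more than 11 bases like miR-451 or more than 12 like miR-144.

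Across the arrays, 199 rat probes were detected in MI hearts and 166 in sham hearts at day 2, and 214 in MI hearts and 173 in sham hearts at day 14. Detected means that at least 50% of a probe's spots exceeded the local background by more than 2 of its standard deviations. The median spot had a local background of 131 intensity units on the MI array and 322 on the sham array at day 2, and of 100 on the MI array and 94 on the sham array at day 14. The day 2 sham array stood apart in the last of the 4 copies of its probe set, here spot set 4. Over 474 detected probes, log2 signal in that set lay at a median of -0.77 from the mean of the other sets, and its median background was 552.5, against 280.5 to 344.5 in sets 1 to 3. The day 2 differences below use all 4 sets unless set 4 is said to be left out. Where it was left out, the arrays had first been normalized with it, unless stated otherwise. The scan header of that array also names an image with a mouse prefix, while the labels say rat and the other 3 headers carry a rat prefix.

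Both members were bright on every array. All 4 spots of each probe were detected in all 4 groups, and 0% of their pixels were saturated.

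At day 2 the miR-451 probe was dimmer in MI hearts than in sham hearts in 3 of 4 spot sets and brighter in 1. Its MI spots read 16585, 21955.5, 25019.5 and 37393.5 units in sets 1 to 4, over local backgrounds of 106 to 169 units. Its sham spots read 42117, 44799.5, 44142 and 4730 units, over backgrounds of 352, 272, 312 and 702 units. The sham spots of sets 1 to 3 were all brighter than any MI spot, and the sham spot of set 4 was dimmer than any MI spot. Net of background, MI over sham was 0.393, 0.491 and 0.568 in sets 1 to 3 and 9.26 in set 4.

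At day 2 the miR-144 probe read almost alike in both groups. Its MI spots read 9907, 10699, 11406 and 10545 units in sets 1 to 4. Its sham spots read 9516, 10551, 11455 and 7965 units. Net of background, MI over sham was 1.06, 1.03 and 1.01 in sets 1 to 3 and 1.37 in set 4. In set 4, too, the sham spot was the dimmest of the 8, but by far less than for miR-451.

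At day 14 both probes were brighter in MI hearts than in sham hearts in every spot set, before any scaling. The MI array was brighter for most miRNAs as well. Without normalization the median difference of the 157 rat miRNAs detected on both arrays was 0.46. Of 230 rat probes, 42 were then at least 2-fold higher and 1 lower in MI hearts. The miR-451 spots read 9360, 9746, 9158.5 and 10252 units in MI hearts. They read 6208, 6211.5, 6923 and 7026 units in sham hearts. Every MI spot was above every sham spot, and net of background MI over sham was 1.33 to 1.57. How many other probes lay apart in this way before scaling was not counted.

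The miR-144 spots at day 14 lay apart by more than those of miR-451. They read 3619.5, 3671, 3745.5 and 3620 units in MI hearts. They read 2103, 2022, 2116 and 2101.5 units in sham hearts. Every MI spot was again above every sham spot, with a net ratio of MI over sham between 1.75 and 1.88. Here, too, other probes that lay apart in this way before scaling were not counted. After normalization 71 of 157 rat miRNAs did (45.2%).

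**Figure D1:**
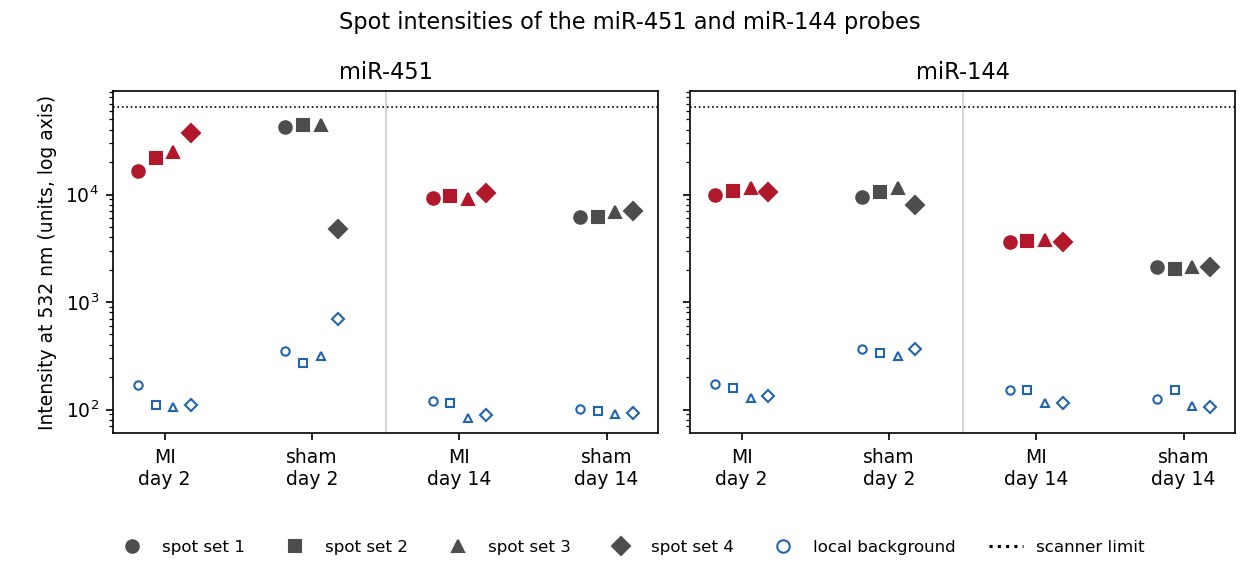
Median foreground (filled) and local background (open) of each spot in the Hy3 channel, in intensity units on a log axis, for the miR-451 and miR-144 probes in MI and sham hearts at day 2 and day 14. The marker shape gives the spot set and the dotted line the scanner's limit. The day 2 sham spot of miR-451 in set 4, at 4730 units, stands apart from the other 3 at 42117 to 44799.5.

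After normalization within each day neither member differed 2-fold between MI and sham at either day. At day 2, 0 of 2 members passed that limit, beside 10 of 187 rat probes that gave a difference or a bound (5.35%), of which 8 were higher (4.28%) and 2 lower (1.07%) in MI hearts. At day 14 it was 0 of 2 members beside 35 of 230 (15.2%), of which 27 were higher (11.7%) and 8 lower (3.48%). In this normalization miR-144 was slightly higher in MI hearts at both days, but not in every scaling. It was at -0.008 at day 2 without normalization and spot set 4, and at -0.005 at day 14 in the authors' deposited table. miR-451 had no direction that held across the spots at day 2 or across the scalings at day 14.

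The normalized level of miR-144 at day 2 was 13.53 ± 0.09 in MI hearts and 13.11 ± 0.22 in sham hearts (SD over 4 spots). The difference was 0.42 with an SE of 0.12, which is 1.34-fold. Every MI spot lay above every sham spot, as for 9 of the 147 rat miRNAs detected on both arrays (6.12%), while 23 of the 147 lay wholly below (15.6%).

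At day 14 miR-144 had a level of 11.52 ± 0.02 in MI hearts and 11.26 ± 0.09 in sham hearts (SD over 4 spots). The difference was 0.26 with an SE of 0.05, which is 1.20-fold. Every MI spot again lay above every sham spot, as for 71 of the 157 rat miRNAs detected on both arrays at that day (45.2%), while 29 lay wholly below (18.5%). Among these 157, 76 had a higher difference than miR-144 and 80 a lower one, so it lay in the middle of them in this scaling. Without normalization it lay 0.34 above their median.

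The normalized level of miR-451 at day 2 was 14.68 ± 0.43 in MI hearts and 14.51 ± 1.67 in sham hearts (SD over 4 spots). The difference was 0.17 with an SE of 0.86, which is 1.13-fold, and the spots overlapped. By spot set the difference was -1.11, -0.80, -0.63 and 3.23. The mean difference was therefore smaller than its error, and its sign came from set 4.

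At day 14 miR-451 had a level of 13.01 ± 0.11 in MI hearts and 12.94 ± 0.07 in sham hearts (SD over 4 spots). The difference was 0.06 with an SE of 0.07, which is 1.04-fold. By spot set it was 0.09, 0.13, -0.10 and 0.13, and the spots of both groups overlapped. Of the 157 miRNAs, 99 had a higher difference and 57 a lower one.

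Without spot set 4, miR-451 at day 2 was lower in MI hearts and miR-144 was still slightly higher. Over sets 1 to 3 miR-451 was at 14.50 ± 0.27 in MI hearts and 15.35 ± 0.03 in sham hearts (SD over 3 spots), a difference of -0.85 with an SE of 0.16. Every MI spot lay below every sham spot, as did those of 73 of 147 rat miRNAs over these sets (49.7%). miR-144 differed by 0.33 with an SE of 0.10, and all its MI spots lay above all sham spots, as for 13 of 147 miRNAs (8.84%). After normalization, the direction of miR-451 at day 2 thus rests on 1 of its 8 spots, and that of miR-144 does not. Without normalization, the miR-144 difference went from 0.09 to -0.008 when set 4 was left out.

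Leaving out set 4 moved most miRNAs downwards, and miR-451 by the most. Over the 147 rat miRNAs the median shift was -0.30, with a range of -1.02 to 0.19, and 53 turned from above 0 to below 0. The shift of miR-451 was -1.02, the lowest of the 147, whereas that of miR-144 was -0.09. With set 4 the members lay at percentiles 61.6 (miR-451) and 76.5 (miR-144) of the 147 differences, around a median of 0.08. Without it they lay near opposite ends, with 6 miRNAs below miR-451 and 7 above miR-144. These values leave out set 4 after normalization, where the median difference was -0.32. With set 4 removed before quantile normalization, the median was -0.12, miR-451 was at -0.64 and miR-144 at 0.54. The move downwards was thus smaller in that order of steps.

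The gap between the members was small with set 4 and large without it. The miR-451 difference minus the miR-144 difference was -0.25 at day 2 over all spots and -1.17 over sets 1 to 3. It was -0.20 at day 14. Since both probes sit on the same arrays, a shift of a whole array cancels in this value.

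The place of the spots on the array goes with these values. On the day 2 sham array the miR-451 spot of set 4 lay -3.34 from the mean of its other spots, and the miR-144 spot lay -0.38 from its own. The array block that holds the miR-451 spot had a median deviation of -1.57 over 37 detected probes, with a median background of 703 units against 296 at the same probes in the other sets. The block that holds the miR-144 spot had a median of -0.37 over 38 probes, with a background of 531.5 against 332.5. The miR-144 spot itself had a background of 365.5 units, against a mean of 339.3 in its other sets. For the miR-451 spot it was 702 against 312. The miR-451 spot was lower than its block: 2 of the 37 probes there deviated further down, as did 15 of the 474 on the array. The part of the background in the miR-451 value was not tested.

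**Figure D2:**
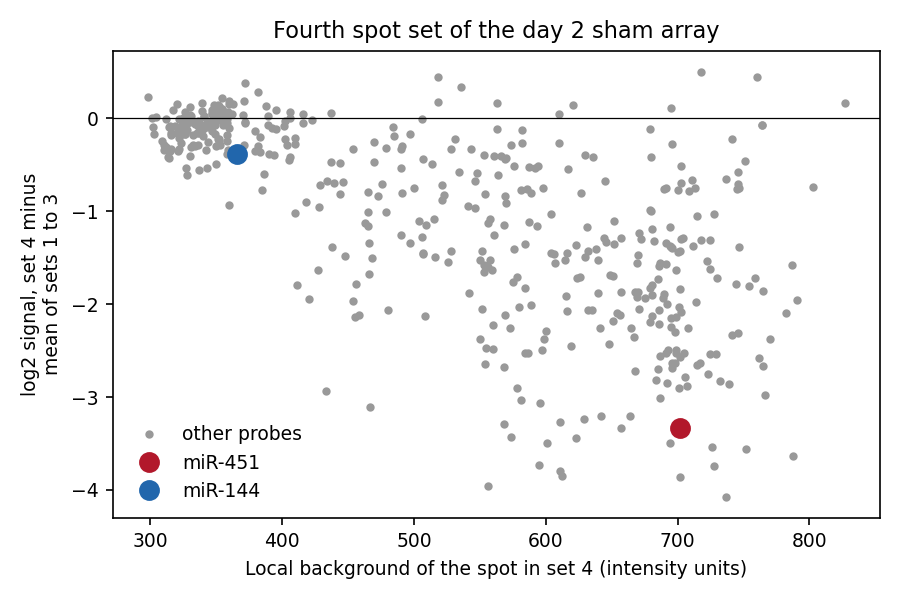
Deviation of the spot in set 4 from the mean of sets 1 to 3 (log2 signal) against the local background of that spot (intensity units), for 474 detected probes of the day 2 sham array. miR-451, at -3.34, lies among the probes of high background, and miR-144, at -0.38, among those of low background.

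The MI array of day 2 was even between its spot sets, but miR-451 was not. Median deviations of the 4 sets were between -0.07 and 0.11 over 611 probes. miR-451 deviated by -0.65, -0.15, 0.05 and 0.74 in sets 1 to 4, and in set 4 no other probe deviated further up. Its spot SD of 0.43 was the largest of 188 detected rat probes that were not saturated, whose median was 0.16. miR-144 had an SD of 0.09 there, and 161 of the 188 were larger. In sham hearts the spot SD of miR-451 was 1.67, and 0.03 without set 4. Its error at day 2 thus came mostly from the sham spot of set 4, with a smaller part from the MI array. The spots of miR-144 were among the tighter ones.

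At day 14 miR-451 did not stand apart in its spot SD, and miR-144 was among the tightest probes in MI hearts. The SD of miR-451 was 0.11 in MI hearts, against a median of 0.08 over 214 rat probes, and 0.07 in sham hearts, against a median of 0.12 over 173. miR-144 had 0.02 in MI hearts, where 211 of the 214 probes had a larger SD. It had 0.09 in sham hearts, where 126 of the 173 did.

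Scaling also bore on the day 2 values. Without normalization miR-451 differed by -0.05 and miR-144 by 0.09 at day 2, while the median of all 147 miRNAs was -0.46. Without normalization and set 4 they differed by -1.07 and -0.008, so miR-451 was then past 2-fold lower in MI hearts. It was 1 of 36 such probes among the 189 rat probes that gave a difference or a bound. The median of the 147 miRNAs was then -0.74, and miR-451 lay -0.34 from it.

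The values of day 14 turned on how the arrays were brought to 1 scale. Without normalization miR-451 was 0.54 higher in MI hearts and miR-144 was 0.81 higher, while the median of all 157 miRNAs was 0.46 higher. Scaled to the 44 spike-in probes, synthetic RNAs added before labelling, the differences were 0.42 for miR-451 and 0.68 for miR-144. With each array centred on its detected rat probes they were -0.17 and 0.09. In the authors' deposited table both were at about 0. Relative to the median of all miRNAs, miR-451 lay at -0.19 after quantile normalization and at 0.08 without any, and miR-144 at 0.01 and 0.34.

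In the authors' deposited table miR-451 had the value 12.94 in both groups at day 14, because it holds place 12 in both columns. Of the sorted values of that table, 76.3% are equal between the columns to within 1e-06, so probes of equal place mostly have equal values. miR-144 had 11.36 in both MI and sham in the authors' deposited table, at places 37 and 36. At day 2 the authors' deposited table gave miR-451 as 14.56 in MI hearts and 14.54 in sham hearts, and miR-144 as 13.39 in MI hearts and 13.10 in sham hearts.

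**Figure D3:**
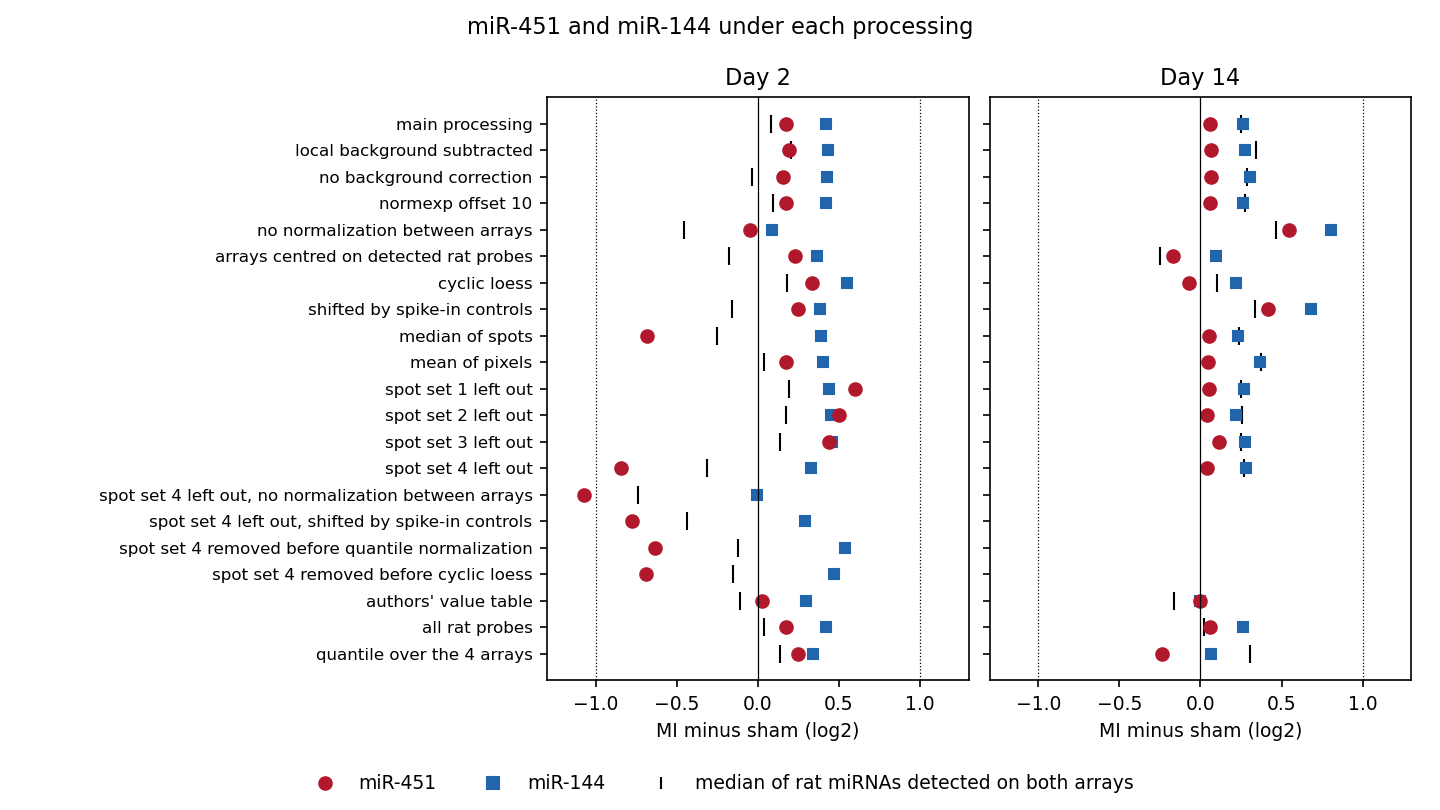
Difference between MI and sham (log2) of miR-451 and miR-144 under each way of processing, at day 2 and day 14, with the median of the rat miRNAs detected on both arrays as a tick. Dotted lines mark 2-fold. At day 2 miR-451 is between -1.07 and -0.64 in each way of processing that removes spot set 4 or takes the median of spots, and miR-144 lies to its right in 18 of 20 alternatives.

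The opposite arms of both hairpins gave little signal. At day 2 the arrays carried a probe under the human name miR-144*, whose probe number is that of rno-miR-144* at day 14 and whose rat counterpart is the miR-144-5p arm printed above. It was detected on 4 of 4 spots in MI hearts and on 0 of 4 in sham hearts. Its raw spots were nevertheless dimmer in MI hearts, at 339.5 to 402 units against 414 to 486. Their local backgrounds were 126 to 165 units in MI hearts and 319 to 355 in sham hearts. At day 14 rno-miR-144* was detected on 0 spots in MI hearts and on 1 of 4 in sham hearts, and rno-miR-451* on 1 spot in each group, so neither gave a fold.

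Of 3 other miRNAs that are abundant in red cells 2 were measured, and both had higher differences than miR-451 at day 14. Their day 2 directions turned on set 4. miR-16, which is also found in most tissues, was 0.63 higher in MI hearts at day 2 with an SE of 0.68, and 0.72 higher at day 14 with an SE of 0.09. Without set 4 its day 2 difference was -0.03. miR-25 differed by 0.10 at day 2 with an SE of 0.62, by -0.50 without set 4 and by -0.65 without normalization. At day 14 it was detected in MI hearts alone and was at least 0.60 higher there. miR-92a, of the same family as miR-25, was not detected at either day. miR-16 was below 2-fold at both days, but it was 1.28 higher at day 14 without normalization. miR-25 was below 2-fold at day 2, and its day 14 bound sets no upper limit.

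miR-221 and miR-222, a pair from 1 locus whose levels drop as erythroid cells mature and which endothelium and smooth muscle also express, had higher differences than the members at both days. miR-221 was 0.75 higher in MI hearts at day 2, with 0.61 without set 4 and 0.17 without normalization. miR-222 was 1.41 higher, with 0.93 without set 4 and 0.94 without normalization. At day 14 both were detected in MI hearts alone, miR-221 at least 1.20 and miR-222 at least 2.28 higher there.

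Leukocyte miRNAs other than miR-150 had larger differences than the members. The list of 4 had a median of 1.35 at day 2, with 2 of 4 past 2-fold. Without set 4 the median was 0.87, with 1 of 4 past 2-fold. At day 14 the median was 1.38, with 3 of 4 past 2-fold higher and 1 past 2-fold lower. miR-223, a miRNA of neutrophils and other myeloid cells, was 1.98 higher in MI hearts at day 2, or 1.97 without set 4, and 1.71 higher at day 14. miR-142-3p, found across blood cell lineages, was 1.73 higher at day 2, or 0.92 without set 4, and 1.27 higher at day 14. miR-142-5p was 0.83 higher at day 2, with and without set 4, and at least 1.48 higher at day 14.

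miR-150, a miRNA of mature lymphocytes, had unlike values at the 2 days. It was 0.96 higher in MI hearts at day 2 but 0.12 without set 4, and at day 14 its difference was -1.71, the lowest of the 157. Leukocyte and erythroid miRNAs thus had unlike differences on the same arrays. How much of each came from blood in vessels was not tested.

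Markers of the tissue itself are given for scale. The endothelial miR-126* differed by 0.10 at day 2, or -0.64 without set 4, and by -0.39 at day 14, or -0.01 without normalization. miR-126 was saturated at day 2, and at day 14 it differed by -0.29, or by 0.05 without normalization. Of 5 heart muscle miRNAs, miR-133b at 0.33 and miR-499 at 0.50 were below saturation at day 2 on both arrays, and turned to -0.31 and -0.48 without set 4. miR-133b was also at -0.02 without normalization. At day 14 all 5 were lower in MI hearts, with a median of -1.36: miR-1 at -1.11, miR-133a at -1.38, miR-133b at -1.39, miR-208 at -1.36 and miR-499 at -0.65. Of these, 4 of 5 were past 2-fold after quantile normalization, and 0 were without normalization, where the lowest was miR-208 at -0.87.

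Markers of organs outside the heart were not all absent. The liver miRNA miR-122 was detected in MI hearts alone at day 2, with a bound of 0.09, or 0 without set 4, and was not detected at day 14. The brain miRNA miR-124 was not detected at either day. miR-9, also of brain, was detected in both groups at day 2, at 10.09 in MI hearts and 10.51 in sham hearts. It differed by -0.42 there, or -0.55 without set 4. At day 14 it was detected in MI hearts alone, with a bound of 0.04, or 0 without normalization.

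**Figure D4:**
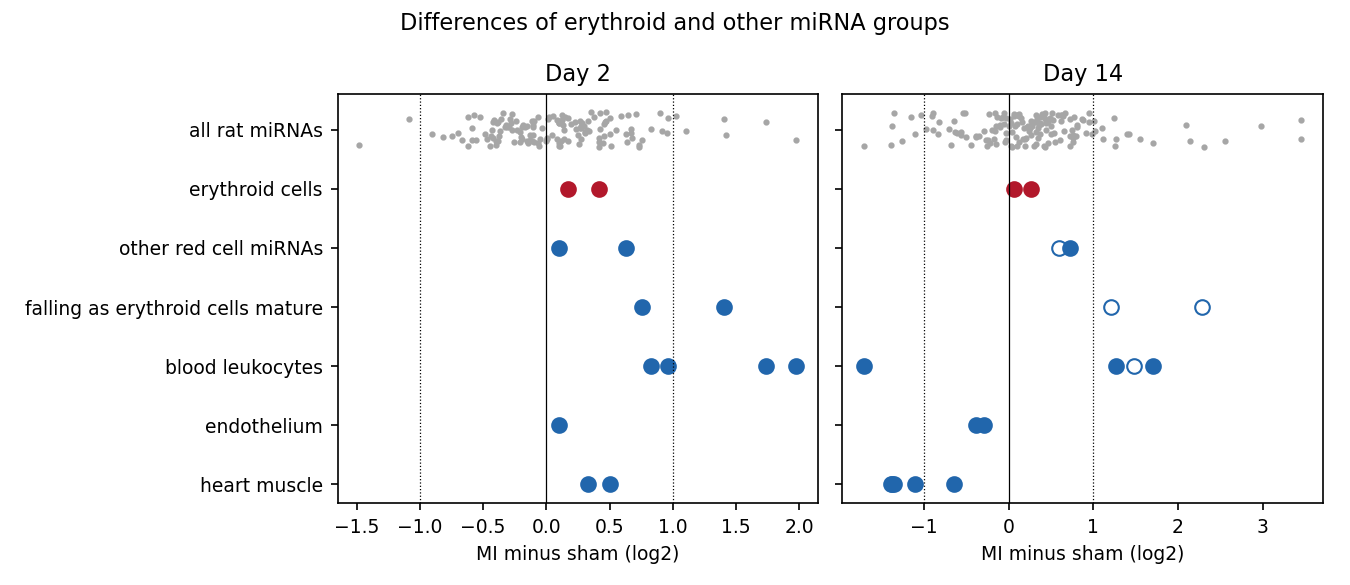
Difference between MI and sham (log2) at day 2 and day 14 for the erythroid members, the other lists and all rat miRNAs detected on both arrays. Open circles are lower bounds for miRNAs detected in MI hearts alone, and dotted lines mark 2-fold. All 4 spot sets are used. On these values miR-451 and miR-144 lie within the range of most miRNAs at both days, to the left of both miRNAs that drop as erythroid cells mature. Without set 4 at day 2 (not drawn), they lie near opposite ends of 147 miRNAs, with 6 below miR-451 and 7 above miR-144.

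Across both days 91 rat miRNAs were detected on all 4 arrays without saturation. Closest to miR-451 in its pair of differences were miR-466c at 0.23 (day 2) and -0.03 (day 14), miR-350 at 0.28 and 0.10, and miR-30d at 0.25 and -0.07. Closest to miR-144 were miR-32 at 0.37 and 0.39, miR-7a at 0.50 and 0.16, and miR-101a at 0.30 and 0.35. The likeness is the Euclidean distance over these 2 differences, which was 0.11 to 0.15 for the miRNAs named. The members themselves were 0.32 apart, so each had at least 3 miRNAs nearer to it than the other member.

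Without set 4 at day 2, some of the closest miRNAs of miR-144 stayed the same and those of miR-451 did not. The members were then 1.19 apart. None of the 3 miRNAs named for miR-451 stayed among its closest 3 of 90, and their day 2 differences were 0.21 for miR-466c, -0.32 for miR-350 and -0.50 for miR-30d. For miR-144, miR-32 at 0.31 and miR-7a at 0.19 stayed among the closest 3, and miR-101a at -0.67 did not.

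miR-101a shares 6 bases of the seed (bases 2 to 7) with miR-144, as does miR-101b. They are printed here because they are the 2 of 693 mature rat miRNAs with these bases, again with bases 2 to 8 in capitals.
rno-miR-144-3p: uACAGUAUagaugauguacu
rno-miR-101a-3p: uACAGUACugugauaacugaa
rno-miR-101b-3p: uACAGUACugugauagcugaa

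miR-101a, at chr5:121081691-121081711 on the minus strand, differed by 0.30 at day 2 with an SE of 0.97, by -0.67 at day 2 without set 4, and by 0.35 at day 14 with an SE of 0.03. miR-101b, at chr1:236273982-236274002 on the plus strand, differed by -0.36 at day 2 with an SE of 0.08, by -0.32 at day 2 without set 4, and by 0.73 at day 14 with an SE of 0.06. Both were thus lower in MI hearts at day 2 over sets 1 to 3, where miR-144 was higher, and all 3 were higher in MI hearts at day 14. The median of all rat miRNAs detected on both arrays was -0.32 at day 2 over these sets, which is near miR-101b. At day 14 that median was 0.25, which is near miR-144 and miR-101a.

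**Figure D5:**
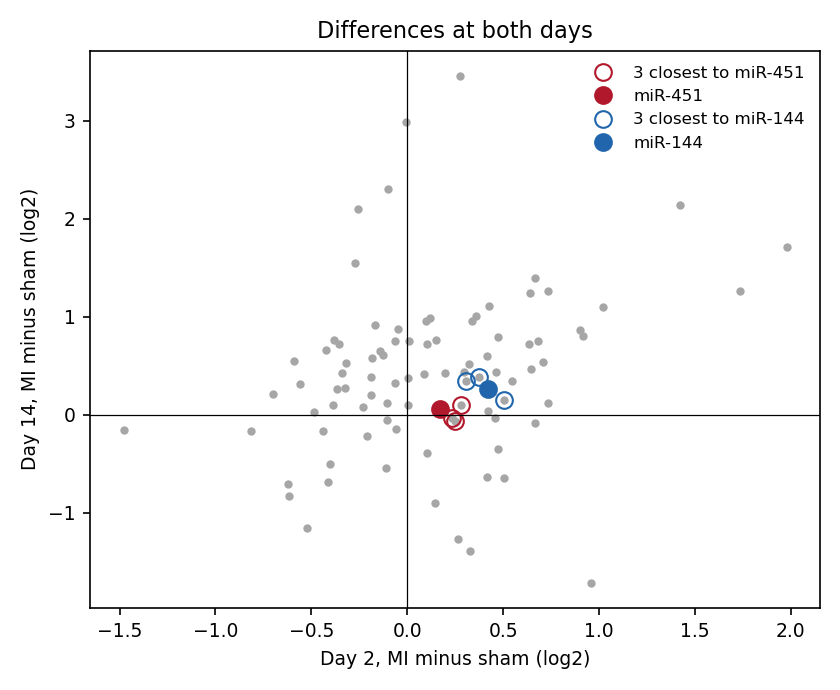
Difference between MI and sham (log2) at day 2 against that at day 14 for 91 rat miRNAs detected on all 4 arrays. Filled markers are miR-451 (0.17 and 0.06) and miR-144 (0.42 and 0.26), and open rings are the 3 miRNAs closest to each over all 4 spot sets.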

How the data were processed

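Heart RNA of MI and sham rats was read on 1 array per group at 2 days, and groups were taken from the sample titles, since the treatment protocol has the same text on all samples. Spot and background intensity were deposited as scanner output of Mapix 4.5.0 (5 µm pixels), per the file headers, and the Hy3 channel was used. The percent of saturated pixels per spot was also deposited and was used to check the members. Per the file headers, day 2 used array version 11.0 with miRBase 12.0 names and day 14 used generation 6 with miRBase 16.0 names. The authors also deposited a table of log2 values, whose background correction and normalization are not given in the sources used here. It served as an alternative.

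Foreground was corrected for background with normexp (offset 50, fitted on all spots) in limma 3.58.1 under R 4.3.3. Non-control spots were quantile normalized within each day, and the log2 values of a probe's 4 spots were averaged. Quantile normalization gives both arrays the same distribution, so a difference that all miRNAs share is removed. A probe detected on 1 array alone gives a bound against the higher of its own value and the lowest detected probe of the other array. The spots limit the precision, and no test was made. The steps were tested on simulated data, in which both arrays had the same background and no spot set deviated. Changes up and down were balanced there. The simulation thus did not test the features that set the day 2 sham array apart, or a shift of a whole array.

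The text names the members, other arms of their hairpins, each miRNA of the lists, and the 3 miRNAs closest to each member over both days. miR-101b was added for its sequence. The members and lists were chosen with earlier results of these data known. Alternatives changed the background correction, the scaling, the average over spots and the spots used; those that combine the removal of spot set 4 with another scaling, the miR-451 minus miR-144 value, and list medians and closest miRNAs without set 4, were added after seeing the data. Results for certain probes are not reported here.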

Additional observations from a re-analysis of the deposited data

Results flagged for a closer look

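At day 2 the probe with the human name miR-144*, described above but not among the rat probes counted, was detected in MI hearts and not in sham hearts. It read 361, 359, 402 and 339.5 intensity units in MI hearts and 414, 451, 443 and 486 units in sham hearts, so the raw spots were dimmer in MI, over a lower background. Its normalized level was 8.96 in MI hearts and 8.88 in sham hearts, a difference of 0.0806 on the log2 scale with an SE of 0.0771. The spots of both groups overlapped, and 2 of 4 spot sets gave a difference below 0, so no direction can be read. The median background was 131 units on the MI array and 322 on the sham array, and the part of that background in the detection was not tested.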

How the results depend on the processing

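No paired analysis was possible because each group has 1 array. Of 20 alternatives at day 2 and 16 at day 14, the miR-144 difference stayed above 0 in 19 and 15, and the miR-451 difference in 13 and 12. The alternatives share most of their spots, so these counts are not independent. Each day 2 alternative that removes spot set 4 put miR-451 below 0, between -1.07 and -0.64. At day 2 miR-144 was 0.0862 without normalization and -0.00845 without both normalization and spot set 4. The miR-451 value ranged between -1.07 (without normalization and set 4) and 0.60 (without set 1), with -0.05 without normalization, -0.68 for the median of spots and -0.85 without set 4. At day 14 miR-144 was 0.81 without normalization, 0.68 scaled to spike-ins, 0.37 from the mean of pixels, 0.0940 with centred arrays, 0.0626 with quantiles over all 4 arrays and -0.00539 in the authors' deposited table. miR-451 was 0.54 without normalization, 0.42 with spike-ins, -0.17 with centred arrays, -0.07 with cyclic loess and -0.24 with quantiles over all 4 arrays. The miR-451 minus miR-144 value at day 14 was 0.00539 in the authors' deposited table. At day 2 it was below 0 in 18 of 20.

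The 10 probes past 2-fold at day 2 (8 higher and 2 lower in MI) became 59 with background subtracted, 27 without normalization (4 higher, 23 lower), 6 with the median of spots, 17 without set 1, 17 without set 2 and 4 without set 4. They became 38 without set 4 and normalization, 16 without set 4 with spike-ins (2 higher, 14 lower), 44 in the authors' deposited table (25 higher, 19 lower) and 5 with quantiles over all 4 arrays. Centred arrays and spike-ins each gave 5 higher and 10 lower, and cyclic loess 12 higher and 1 lower. The 35 at day 14 (27 higher, 8 lower) became 81 with background subtracted and 67 in the authors' deposited table (39 higher, 28 lower). Splits were 42 higher and 1 lower without normalization, 36 and 4 with spike-ins, 16 and 31 with centred arrays and 22 and 13 with cyclic loess. The causes were not tested. The median difference of spike-ins was -0.30 at day 2 over 8 probes and 0.12 at day 14 over 44. The opposite arms lay near background, where no direction can be read.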
